A study of Mus musculus with 6 samples.

Results

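Genes of basophils and mast cells were examined in bone marrow of mice that carried a transplanted leukemia. The set comprised 9 of the 55487 genes in the expression table: the granule proteases Prss34, Mcpt8, Cpa3 and Tpsb2, the IgE receptor chains Fcer1a and Ms4a2, the surface receptor Cd200r3, the histamine-forming enzyme Hdc and the cytokine Il4. They were chosen as markers of these cell types with their levels in the same 6 libraries already known, so their levels are given as a description, without a test. RNA-seq had been performed on GFP+ cells from femora and tibiae, with 3 libraries labelled PBS and 3 labelled pIpC. The study's text names c-Kit+ bone marrow cells for its RNA-seq comparison of these groups, so the cell fraction is not settled. Donor cells in both groups were CD45.2(+), of the C57BL/6 strain, and carried Mx1-Cre, floxed Brd9 alleles (Brd9fl/fl) and the MLL-AF9 fusion oncogene (MA9), and the recipients were CD45.1(+) and CD45.2(-). Recipients were irradiated with 2 fractions of 450 cGy, received 1000 leukemic bone marrow cells and were then given 3 doses of either PBS or 20 mg/kg pIpC, and cells were prepared 10 days after the injections. The study's methods instead describe recipients aged 6 weeks and a sublethal 450 cGy. pIpC, a synthetic double-stranded RNA, induces interferon, which switches on the Mx1 promoter that drives Cre, so any action of pIpC itself and of Brd9 deletion cannot be told apart in this design. No ages are given in the labels, and nothing there states that each library came from a separate animal, so the p-values below measure only the spread between these samples.

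Basophils and mast cells store histamine and proteases in granules and release them when IgE bound to the high-affinity receptor FcεRI is cross-linked by antigen. The receptor consists of an IgE-binding alpha chain (Fcer1a), a signal-amplifying beta chain (Ms4a2) and a gamma chain shared with other Fc receptors (Fcer1g). In the mouse, Mcpt8 and Prss34 are serine proteases used as basophil markers, Tpsb2 is a tryptase of connective tissue mast cells, and the metalloprotease Cpa3 occurs in both lineages and their progenitors. Transcription factors of the GATA family bind regulatory regions of several of these genes.

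The proximal promoters of 4 of these genes are shown because their genes differed widely between the groups and because they hold, or lack, the letters of a GATA site. Each is the 250 bases before the transcription start listed by RefSeq (GRCm38.p6), written 5′ to 3′ on the strand of the gene, at chr17:25298144-25298393 (plus strand), chr19:11623720-11623969 (minus strand), chr1:173227230-173227479 (minus strand) and chr14:56085198-56085447 (minus strand). Capitals mark AGATAA, or TTATCT where it lies on the opposite strand.
Prss34: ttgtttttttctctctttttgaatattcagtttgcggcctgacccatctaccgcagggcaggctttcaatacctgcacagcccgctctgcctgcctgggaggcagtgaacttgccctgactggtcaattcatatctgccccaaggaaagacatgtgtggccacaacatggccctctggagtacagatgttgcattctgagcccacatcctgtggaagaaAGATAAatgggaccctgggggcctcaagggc
Ms4a2: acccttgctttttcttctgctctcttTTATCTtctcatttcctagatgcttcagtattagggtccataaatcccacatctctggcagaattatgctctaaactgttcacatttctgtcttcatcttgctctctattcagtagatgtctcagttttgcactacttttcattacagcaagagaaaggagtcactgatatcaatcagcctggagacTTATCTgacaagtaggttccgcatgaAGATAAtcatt
Fcer1a: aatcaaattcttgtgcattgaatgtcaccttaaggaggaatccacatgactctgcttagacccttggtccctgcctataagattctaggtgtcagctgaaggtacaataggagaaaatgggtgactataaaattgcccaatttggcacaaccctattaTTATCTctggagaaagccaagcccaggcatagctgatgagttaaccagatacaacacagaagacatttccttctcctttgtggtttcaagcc
Mcpt8: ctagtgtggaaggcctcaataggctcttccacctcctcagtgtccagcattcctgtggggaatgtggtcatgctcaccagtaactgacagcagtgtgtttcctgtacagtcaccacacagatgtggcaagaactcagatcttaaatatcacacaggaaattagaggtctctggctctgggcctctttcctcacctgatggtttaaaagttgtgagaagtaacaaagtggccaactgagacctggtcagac
The start in front of which each window lies is that of RefSeq, which for Fcer1a and Mcpt8 differs from the gene boundary of the GENCODE annotation used for the gene positions below. A RefSeq promoter was listed for 8 of the 9 genes. AGATAA occurred on either strand in 5 of these 8, namely Prss34, Ms4a2, Fcer1a, Cpa3 and Cd200r3, whereas 9.99% of all 32851 promoters of this length held it. Counted from the start, its first base lay at -31 in Prss34, at -46 in Cpa3, at -39 in Cd200r3 and at -92 in Fcer1a, and Ms4a2 held it 3 times, at -224, -37 and -11. The letters TGATAA were found in 1 of the 8 (Cd200r3) and in 7.94% of all promoters. The RUNX motif TGTGGT was present in 3 (Cpa3, Fcer1a and Mcpt8) against 14% of all promoters, and the PU.1 motif GAGGAA in 3 (Cd200r3, Fcer1a and Mcpt8) against 23.3%. The E-box CANNTG was present in 7 of the 8, against 66.2% of all promoters. These matches describe letters in the sequence, and binding was not measured.

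The libraries held 19277439 to 22378154 reads in the PBS group and 22348517 to 23586722 in the pIpC group, counted over genes. Brd9, the floxed gene, had normalized counts of 1926.8, 1946.4 and 1631.9 in PBS and 2036.0, 2263.0 and 2011.4 in the libraries labelled pIpC. It was thus not lower in the pIpC libraries (log2 fold change 0.20, SE 0.13, n = 3 per group, limma with Benjamini-Hochberg adjustment, adjusted p = 0.259; exact two-sided permutation p = 0.1, the smallest that 3 against 3 allows). A count over the whole gene does not show whether the floxed exons were removed, and the term "libraries labelled pIpC" is therefore used for the group. The groups differed at many genes: 15020 genes averaged at least 10 normalized counts over the 6 libraries, and of these 6808 (45.3%) passed an adjusted p of 0.1 in limma, 3750 (25.0%) higher and 3058 (20.4%) lower in pIpC. PBS replicate 3 stood apart from the other PBS libraries at several genes described below, and without it the number of genes passing the threshold was 9783.

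Markers of other blood cells also differed. The sum of 11 neutrophil markers lay between 19230 and 39540 normalized counts in PBS and between 1958000 and 2019000 in pIpC, and all 11 rose. The sum of 6 erythroid markers ranged from 16.4 to 32.8 in PBS and from 2188 to 3418 in pIpC, that of 8 megakaryocyte markers from 338.3 to 535.3 and from 1466 to 2119, that of 6 B cell markers from 135.6 to 303.4 and from 1168 to 2036, and that of 9 T and NK cell markers from 26.1 to 45.0 and from 289.1 to 310.8. Of 5 granulocyte progenitor markers, 3 rose (Mpo, Ms4a3 and Ctsg). Of 6 genes associated with MLL-AF9 leukemia, 5 fell and 1 (Mef2c) rose, and Hoxa9 went from a mean of 5130 to 256 normalized counts. These counts stand beside 25.0% of all genes tested that rose and 20.4% that fell (limma, adjusted p under 0.1). Whether reads came from donor or recipient cells was not measured. In such bulk samples a change in the share of cells of a type and a change in RNA per cell cannot be told apart, and the part that these cell types had in the values below was not tested.

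Of the 9 basophil and mast cell genes, 6 were higher in every library labelled pIpC than in every PBS library (Prss34, Mcpt8, Fcer1a, Ms4a2, Cd200r3 and Hdc), 0 were lower in every one, and 3 overlapped (Cpa3, Il4 and Tpsb2). Over all genes tested, 30.5% lay above in every pIpC library. The average over all libraries reached 10 normalized counts in 8 of the 9, the exception being Tpsb2. The 9 genes together accounted for 163, 183 and 216 RPM (reads scaled to library depth) in the PBS libraries and for 539, 475 and 455 RPM in the pIpC libraries.

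**Figure D1:**
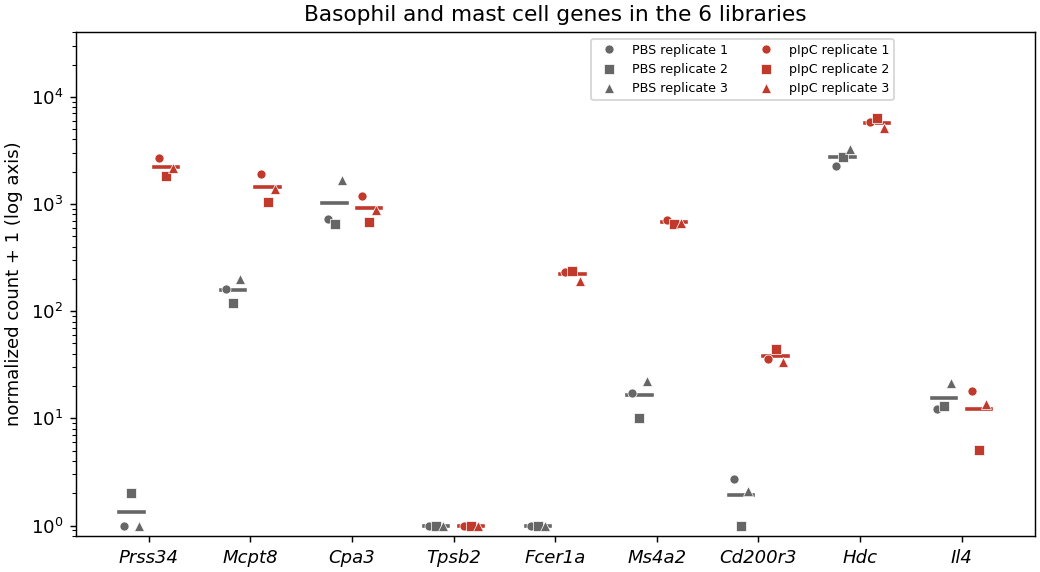
Normalized count + 1 (log axis) of each of the 9 genes in the 3 PBS libraries (grey) and the 3 libraries labelled pIpC (red), with the symbol giving the replicate and the bar the mean of 3. Prss34 and Fcer1a go from at or near 0 to means of 2213 and 220 normalized counts, Cpa3 and Il4 overlap between groups, and Tpsb2 is at 0 in all 6 libraries.

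The widest separation was at Prss34, a basophil tryptase-like protease on chromosome 17 (ENSMUSG00000056399, chr17:25298394-25300165, plus strand). Its normalized counts were 0, 1.0 and 0 in PBS and 2657.8, 1828.8 and 2151.6 in the libraries labelled pIpC, where it stood at the level of a well expressed gene in every library. The PBS group held 1 read of Prss34 in all and the pIpC group 6678, a ratio of 6706 whose 95% interval, covering counting error only, ran from 1203 to 264900. Mcpt8 (ENSMUSG00000022157, chr14:56082166-56085273, minus strand) was already present in PBS, with normalized counts of 158.3, 119.4 and 196.9, and reached 1883.3, 1050.3 and 1369.3 in pIpC. The means were 158 ± 38.7 and 1434 ± 420 (SD, n = 3), a log2 fold change of 3.16 (SE 0.27) on the log2(normalized count + 1) scale. Both basophil proteases were therefore higher in pIpC, Prss34 from almost no reads and Mcpt8 from a measurable level.

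The other granule proteases did not separate the groups. Cpa3, which trims peptides in mast cell and basophil granules (chr3:20215620-20242181, minus strand), had normalized counts of 723.3, 653.9 and 1687.3 in PBS and 1178.7, 672.3 and 881.9 in pIpC. The groups overlapped, and the log2 fold change was -0.06 (SE 0.39). Its sign turned when single libraries were left out, with a log2 fold change of 0.37 without PBS replicate 3 and of 0.14 without pIpC replicate 2. The microRNA gene Mir7007 lies on the same strand within Cpa3, with a mean of 3.28 normalized counts. Likewise Mir6949, with a mean of 0, overlaps Mcpt8 on the same strand. How reads that fall in both genes of such a pair were counted is not settled, so their effect on Cpa3 and Mcpt8 is not known. Tpsb2 (chr17:25366305-25369098, plus strand) had 0 reads in all 6 libraries, which allows up to 3 reads in each group.

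FcεRI was represented by its alpha and beta chains. Fcer1a, which encodes the chain that binds IgE (chr1:173221284-173227214, minus strand), had 0 reads in each PBS library and normalized counts of 232.5, 238.1 and 189.5 in pIpC. Its mean in pIpC was 220 ± 26.6 (SD, n = 3), at least 222-fold higher than the level of 3 reads over the PBS group. Ms4a2, the beta chain (chr19:11615523-11623719, minus strand), had normalized counts of 16.4, 9.1 and 21.5 in PBS and 705.6, 650.8 and 670.1 in pIpC. The 3 pIpC libraries were nearly level with each other, and the means of 15.7 ± 6.23 and 676 ± 27.8 (SD, n = 3) were 43.1-fold apart (log2 fold change 5.42, SE 0.32). The gamma chain Fcer1g, which neutrophils and other myeloid cells also express, had normalized counts of 3428.0, 3396.9 and 7092.1 in PBS and 4645.0, 4898.0 and 5129.0 in pIpC. The values of Fcer1g overlapped between groups, with PBS replicate 3 the highest of the 6 (log2 fold change 0.17, SE 0.29, limma adjusted p = 0.68). Without PBS replicate 3, the log2 fold change of Fcer1g was 0.52 with a limma adjusted p of 0.000161.

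Cd200r3, an activating receptor of basophils and mast cells (chr16:44943678-44981380, plus strand), was the least counted of the genes that separated the groups. Its normalized counts were 1.7, 0 and 1.1 in PBS and 34.9, 42.9 and 32.9 in pIpC. This corresponded to 3 reads against 111, a ratio of 37.2 with a 95% counting interval of 12.4 to 183. Cd200r3 has close paralogs in the same receptor family, among them Cd200r4, so a share of its reads could belong to them. Cd200r4 itself rose from a mean of 14.8 to 48.4 normalized counts (log2 fold change 1.64, SE 0.30, limma adjusted p = 0.00539).

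Among the mediator genes, Hdc, the enzyme that makes histamine from histidine (chr2:126593667-126619299, minus strand), was the most counted of the set. Its normalized counts were 2253.0, 2769.4 and 3264.9 in PBS and 5804.7, 6347.7 and 5063.2 in pIpC. The groups did not overlap, the means were 2762 ± 506 and 5739 ± 645 (SD, n = 3), and the log2 fold change was 1.06 (SE 0.17). Hdc thus differed from the receptor chains and Prss34 in being abundant in the PBS libraries. Il4, a cytokine released by basophils and type 2 T cells (chr11:53602982-53618669, minus strand), had normalized counts of 11.2, 12.1 and 20.4 in PBS and 17, 4.1 and 12.6 in pIpC. These stood for 43 reads against 34 and overlapped widely, with a log2 fold change of -0.49 (SE 0.56) that was 0.05 without pIpC replicate 2. A difference in Il4 was not detectable at this depth and with this spread between libraries. The coefficient of variation of Il4 was 34.5% in PBS and 58.4% in pIpC, where read counting alone would give 26.6% and 29.7%.

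Levels of different genes were compared per length, as RPKM, reads scaled to library depth and to kilobases of annotated exon. In PBS, the order by mean RPKM was Cpa3 (31.0 ± 13.3), Hdc (20.6 ± 2.09), Mcpt8 (7.51 ± 1.20), Il4 (0.557 ± 0.117) and Ms4a2 (0.262 ± 0.0836), followed by Prss34 (0.0142) and Cd200r3 (0.0076), with Fcer1a and Tpsb2 at 0. The ranges of Cpa3 and Hdc overlapped among the PBS libraries. In the libraries labelled pIpC, the order by mean RPKM was Prss34 (78.9 ± 14.2), Mcpt8 (62.5 ± 17.7), Hdc (39.1 ± 4.38), Cpa3 (26.1 ± 7.06), Ms4a2 (10.5 ± 0.339), Fcer1a (9.61 ± 1.13), Il4 (0.397 ± 0.230) and Cd200r3 (0.269 ± 0.0395), with Tpsb2 at 0 (SD, n = 3). Neighbours in that order whose ranges overlapped were Prss34 and Mcpt8, Ms4a2 and Fcer1a, and Il4 and Cd200r3. The basophil proteases thus moved from below Cpa3 and Hdc to above them, while the alpha and beta chains of the receptor reached similar levels per length.

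Within the libraries labelled pIpC, 5 of the genes (Prss34, Mcpt8, Cpa3, Ms4a2 and Il4) had the order replicate 1, replicate 3, replicate 2. Relative to the pIpC mean, Prss34 stood at 1.20, 0.972 and 0.827, Mcpt8 at 1.31, 0.955 and 0.732, and Cpa3 at 1.29, 0.968 and 0.738. Ms4a2 had the same order over a narrower range, at 1.05, 0.992 and 0.963, and Il4, on 34 reads, over a wider one, at 1.51, 1.12 and 0.365. The coefficients of variation were 18.9% for Prss34, 29.3% for Mcpt8, 27.9% for Cpa3 and 4.12% for Ms4a2. Fcer1a varied by 12.1%, Cd200r3 by 14.4% and Hdc by 11.2%, and these 3 genes were lowest in replicate 3. Read counting alone would give 3.84% for Ms4a2 and 16.4% for Cd200r3, so the order of libraries at these genes cannot be told from counting error. With 3 libraries the orders are a description. The hemoglobin genes Hba-a1 and Hbb-bs, picked after their values were seen, had the same order of libraries, with normalized counts in replicates 1, 3 and 2 of 1663.8, 1412.8 and 1041.1 for Hba-a1 and of 1133.8, 791.0 and 679.4 for Hbb-bs. Whether erythroid cells bear on these values was not tested.

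**Figure D2:**
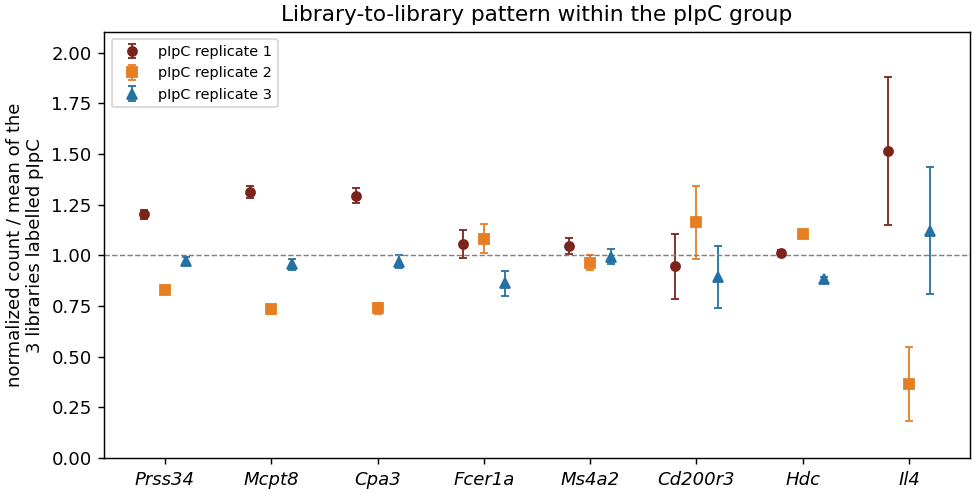
Normalized count of 8 of the genes in each library labelled pIpC, divided by the mean of the 3 pIpC libraries (vertical axis, no unit), with bars of 1 standard error from read counting alone. Prss34, Mcpt8, Cpa3, Ms4a2 and Il4 have the order replicate 1, 3, 2, with the values of Ms4a2 between 0.963 and 1.05 and those of Il4 between 0.365 and 1.51.

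Mcpt8 and Prss34 each lie in a cluster of protease genes, which allowed their neighbours to be read in the same libraries. Within 500 kb of Mcpt8 on chromosome 14, 15 genes of the mast cell protease, chymase, granzyme and cathepsin G families are annotated, and 4 of them had more than 3 reads over the 6 libraries. Besides Mcpt8 these were Ctsg, Gzmb and Cma1, and 9 of the 15 had no read at all, among them the mast cell proteases Mcpt1, Mcpt4 and Mcpt9. Ctsg, cathepsin G of neutrophil and monocyte precursors, starts 17.7 kb from Mcpt8 and had normalized counts of 14443.0, 13111.9 and 17254.5 in PBS and 22665.0, 19526.5 and 18258.9 in pIpC. Its log2 fold change of 0.44 (SE 0.17, limma adjusted p = 0.0875) stands beside 3.16 for Mcpt8, and Ctsg lost its call when any library except PBS replicate 3 was left out, in edgeR, with the replicate block and with no filter on low counts, with adjusted p between 0.00143 and 0.258 over the alternatives. Gzmb, a granzyme of cytotoxic lymphocytes, had 2 reads in PBS and 57 in pIpC, a ratio of 28.6 (95% counting interval 7.57 to 242). Cma1, the mast cell chymase, had 0 and 5 reads.

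Around Prss34 on chromosome 17, 6 protease genes lie within the same distance, and 4 of them, Prss29 and the tryptases Tpsab1, Tpsb2 and Tpsg1, had no read in any library. Prss28, which starts 10.2 kb from Prss34, had 0 reads in PBS and normalized counts of 6.0, 7.2 and 8.7 in pIpC, at least 7.36-fold higher than the level of 3 reads over the group. Tpsb2, 67.9 kb from Prss34, was silent at this depth in libraries where Prss34 had 1790 to 2663 reads. High counts in the Prss34 cluster were thus confined, among these 6 genes, to Prss34.

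**Figure D3:**
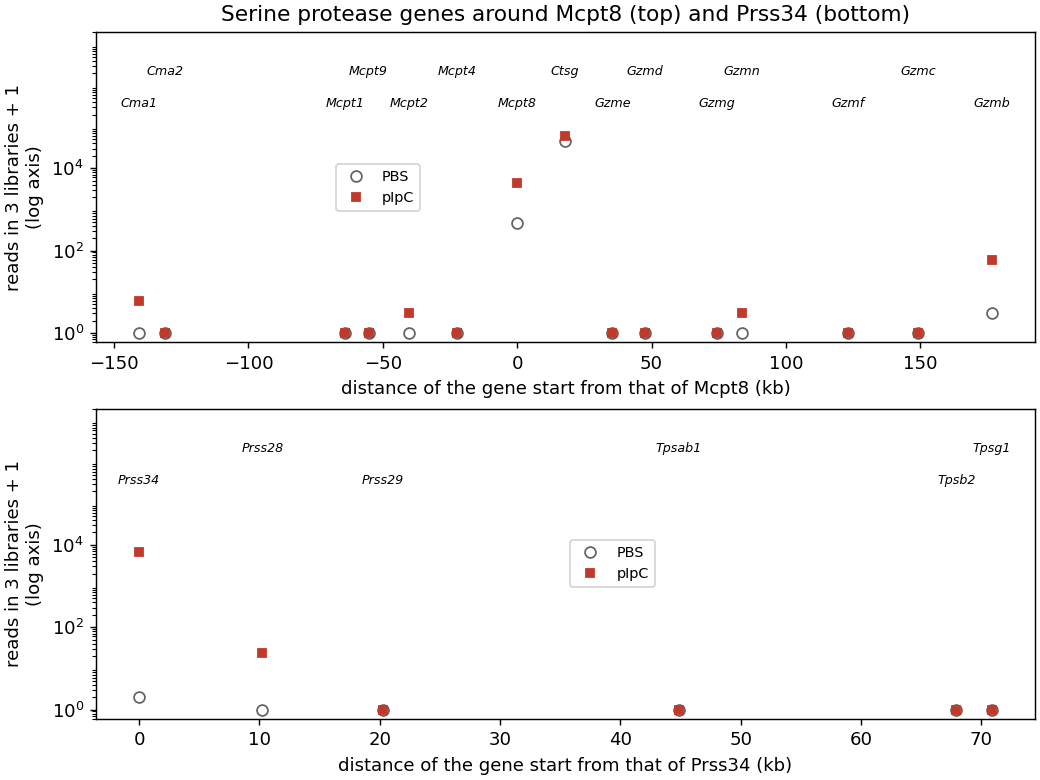
Reads summed over 3 libraries + 1 (log axis) for the annotated protease genes around Mcpt8 (top) and Prss34 (bottom), against the distance between gene starts in kb, for PBS (open circles) and libraries labelled pIpC (red squares). At Mcpt8 the gene itself and Ctsg carry nearly all reads, and at Prss34 the 6678 pIpC reads of that gene stand beside 22 of Prss28 and 0 of the 4 others.

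Other genes of basophils and mast cells were then counted from lists of general knowledge, drawn up with results of these data known. Of 20 further basophil genes, 15 could be tested, and 10 (66.7%) rose and 2 fell (limma, adjusted p under 0.1), where 25.0% of all genes tested rose, with a median log2 fold change of 1.64 against 0.01 over all genes tested. Among those that rose, Cyp11a1, Il1rl1, Ccr3, Il18r1 and Itga2 had PBS means of 0, 1.0, 1.34, 4.08 and 4.945 normalized counts. They reached the required mean of 10 only through pIpC and could only rise, which favours a higher share and median. The largest rise was that of Il18r1, a chain of the interleukin-18 receptor, from 0.9, 9.1 and 2.3 to 637.8, 647.7 and 763.0 normalized counts (log2 fold change 7.43, SE 0.59, limma adjusted p = 0.000154). The largest fall was that of the activation marker Cd69, from 1831.7, 1965.7 and 1242.6 to 344.3, 278.9 and 301.7 normalized counts (log2 fold change -2.42, SE 0.20, limma adjusted p = 0.000197). Cd63, a granule membrane protein that many cells make and the most counted gene of the list, had means of 8246 and 7891 normalized counts and did not pass (log2 fold change 0.07, limma adjusted p = 0.89), although without PBS replicate 3 its log2 fold change was 0.50 with a limma adjusted p of 0.000657.

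Receptors for the cytokines and chemokines that act on basophils were picked from this list after their values were seen. Il1rl1, the interleukin-33 receptor, had 3 reads in PBS and 671 in pIpC, a ratio of 225 (95% counting interval 76.5 to 1092). Ccr3, the eotaxin receptor of eosinophils and basophils, had normalized counts of 0.9, 2.0 and 1.1 in PBS and 97.8, 93.0 and 195.3 in pIpC (log2 fold change 5.74, SE 0.42, limma adjusted p = 0.00011). In contrast, Il3ra, the alpha chain of the receptor for interleukin-3, a growth factor of basophils, fell from 1295.2, 1108.3 and 2950.3 to 544.9, 691.7 and 516.4 normalized counts (log2 fold change -1.48, SE 0.37, limma adjusted p = 0.0197). The beta chain gene Csf2rb rose (log2 fold change 0.86, SE 0.15, limma adjusted p = 0.00486). Csf2rb2, a beta chain gene of the same list, overlapped between groups and did not pass (log2 fold change 0.46, SE 0.22, limma adjusted p = 0.145). Among the alternatives, Csf2rb2 was called only without PBS replicate 1. Eosinophil markers were read beside these because eosinophils share Ccr3 with basophils. Of 7 tested, 3 (42.9%) rose (Epx, Ear2 and Ear6) and 2 (28.6%) fell (Prg3 and Siglecf). Among all genes tested 25.0% rose and 20.4% fell, so on 7 genes these shares are not a result about eosinophil genes. Ear6 had 0 reads in PBS and could only rise.

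Many mast cell genes gave few or no reads, although some, such as Srgn and Kit, were abundant. Of 18 further mast cell genes, 13 had no read in the PBS libraries and 9 had none in any library, including the chymase-family gene Mcpt4 and the tryptase Tpsab1. Only 6 could be tested, of which 1 (16.7%) rose and 1 (16.7%) fell, with a median log2 fold change of -0.32. Over all genes tested 25.0% rose and 20.4% fell, so these shares are not a result about mast cell genes. Rab27b, which guides granules to the membrane in mast cells and also in platelets, had 0 reads in PBS and normalized counts of 109.8, 120.6 and 77.4 in pIpC, at least 103-fold higher than the level of 3 reads over the group (limma adjusted p = 3.77e-05). Rab27b thus passed the count filter only through pIpC and could only rise. Megakaryocyte markers rose in the same libraries, 7 of 7 tested, and their part in the Rab27b value was not tested. Those tested other than Gp9 and Itga2b had PBS means under 10 normalized counts and could only rise. The fall was that of Srgn, the granule proteoglycan serglycin found in most blood cells, from a mean of 34120 to 16560 normalized counts (log2 fold change -0.997, SE 0.24, limma adjusted p = 0.0176). Adora3, an adenosine receptor with the lowest log2 fold change of the list (-1.23, SE 0.51), had normalized counts of 44.1, 26.3 and 103.0 in PBS and 18.0, 18.4 and 26.1 in pIpC and did not pass (limma adjusted p = 0.105). Its adjusted p ran from 0.0329 to 0.246 over the alternatives, and Adora3 was called lower by edgeR, by DESeq2, with the replicate block, after quantile normalization and without PBS replicate 2. Kit, the stem cell factor receptor of mast cells and blood progenitors, had normalized counts of 7764.4, 7118.7 and 3912.2 in PBS and 4155.9, 4341.1 and 4588.4 in pIpC. Kit did not pass (log2 fold change -0.46, SE 0.26, limma adjusted p = 0.213), but without PBS replicate 3 its log2 fold change was -0.77 with a limma adjusted p of 2.39e-05.

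**Figure D4:**
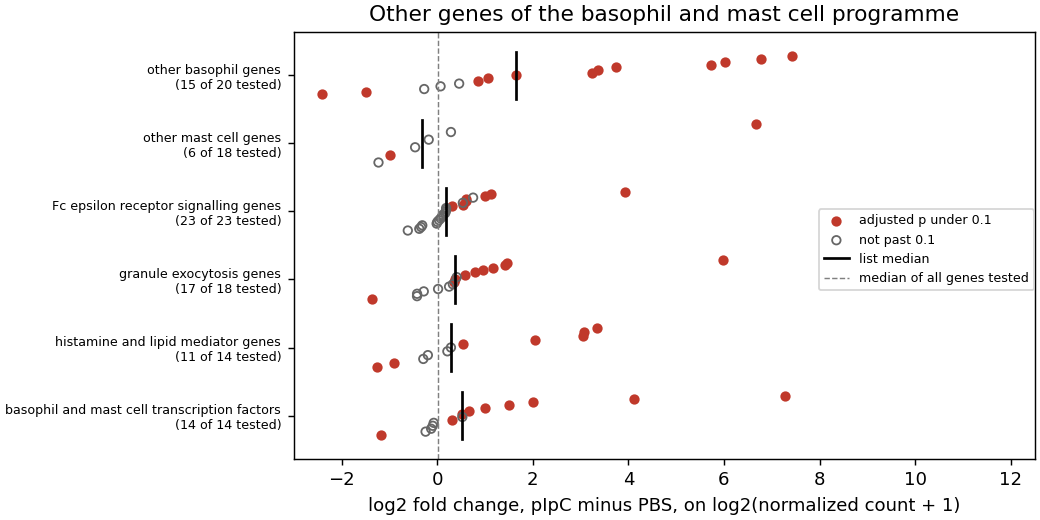
Log2 fold change of libraries labelled pIpC against PBS on the log2(normalized count + 1) scale (horizontal axis) for the tested genes of 6 lists, filled red where the limma adjusted p was under 0.1, with each list's median as a black bar and the median of all genes as a dashed line. The other basophil genes are spread between -2.42 and 7.43 with a median of 1.64, and the values of genes with no PBS read depend on the added 1.

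The signalling chain below FcεRI runs from the kinases Lyn, Fyn and Syk through adaptors to calcium entry. Of its 23 genes, 7 (30.4%) rose and 0 fell (limma, adjusted p under 0.1), and the median log2 fold change was 0.18. The share that rose was near the 25.0% of all genes tested and is not a result about the pathway. Without PBS replicate 3, 12 rose and 5 fell, and without pIpC replicate 2 or pIpC replicate 3, 4 rose. The largest rise was that of the kinase Fyn, from 15.6, 17.2 and 20.4 to 298.4, 262.6 and 282.4 normalized counts (log2 fold change 3.92, SE 0.21, limma adjusted p = 4.09e-05). Fyn acts beside Lyn and Syk at the receptor and is also a kinase of T and NK cells. The 6 tested markers of T and NK cells all rose in these libraries, although Klrb1c lost its call without pIpC replicate 1 or pIpC replicate 3. Each of these markers had a PBS mean under 10 normalized counts, so it passed the count filter only through pIpC and could only rise. Ptpn6, a phosphatase that restrains the pathway and its most counted gene, went from a mean of 6885 to 8487 normalized counts (log2 fold change 0.30, SE 0.12, limma adjusted p = 0.0899), a call lost when any library except PBS replicate 3 was left out, in edgeR, with the replicate block and with no filter on low counts. The calcium channel gene Orai1 had the lowest log2 fold change (-0.61, SE 0.27) and did not pass (limma adjusted p = 0.119, with a range over the alternatives of 0.0169 to 0.28). Orai1 was called lower by edgeR, by DESeq2, with the replicate block, after quantile normalization and without PBS replicate 2 or PBS replicate 3.

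Of 17 tested genes of granule exocytosis, 9 (52.9%) rose and 1 fell, with a median log2 fold change of 0.38, where 25.0% of all genes tested rose. Cplx2, a complexin that clamps membrane fusion, rose from 4.3, 2.0 and 1.1 to 143.7, 221.7 and 268.8 normalized counts (log2 fold change 5.98, SE 0.44, limma adjusted p = 0.000114). With a PBS mean of 2.49, Cplx2 passed the count filter only through pIpC and could only rise. Stx3, a syntaxin of the granule membrane, was the gene that fell, from a mean of 855 to 333 normalized counts (log2 fold change -1.36, SE 0.16, limma adjusted p = 0.000753). Rab27a, the most counted of the list, went from 5463 to 6939 (log2 fold change 0.35, SE 0.14, limma adjusted p = 0.0973) and lost this call when PBS replicate 2 or any pIpC library was left out, in edgeR, with the replicate block, after quantile normalization and with no filter on low counts. These genes serve secretion in neutrophils, platelets and lymphocytes as well.

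Genes that store, break down or sense histamine, or that make lipid mediators, were considered beside Hdc. Of 11 tested, 5 (45.5%) rose and 2 fell, with a median log2 fold change of 0.29, where 25.0% of all genes tested rose. Slc18a2, the transporter that loads histamine into granules, had normalized counts of 36.3, 45.5 and 82.6 in PBS and 411.2, 484.3 and 419.7 in pIpC (log2 fold change 3.06, SE 0.32, limma adjusted p = 0.000446). Hnmt, which inactivates histamine by methylation, fell from a mean of 1015 to 534 normalized counts (log2 fold change -0.91, SE 0.17, limma adjusted p = 0.00593). Slc18a2 and Hnmt were singled out after their values were seen. Aoc1, which inactivates histamine by oxidation, had 0 reads in PBS and 9 in pIpC and was too low to be tested. Hpgds, the prostaglandin D synthase of blood cells, showed the largest rise, from 11.2, 5.1 and 11.3 to 82.8, 77.6 and 145.0 normalized counts (log2 fold change 3.35, SE 0.42, limma adjusted p = 0.00103). With a PBS mean of 9.21, Hpgds passed the count filter only through pIpC and could only rise. Ptgs2, the inducible cyclooxygenase, had the lowest log2 fold change (-1.25, SE 0.50, limma adjusted p = 0.0958) and Lta4h, which makes leukotriene B4, the highest counts (means 20330 and 28980, log2 fold change 0.53, SE 0.19, limma adjusted p = 0.0701). Both of these calls were lost when any library except PBS replicate 3 was left out, that of Lta4h also with the replicate block and that of Ptgs2 also with a pseudocount of 0.1 and with no filter on low counts.

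Transcription factors of the lineage went in different directions. Of 14, 8 (57.1%) rose and 1 fell, with a median log2 fold change of 0.53, where 25.0% of all genes tested rose. The number that rose was 5 without PBS replicate 2 or without pIpC replicate 1 and 10 without PBS replicate 3. Gata1, a factor of the erythroid, megakaryocyte, eosinophil, basophil and mast cell lineages, rose from 13.0, 13.2 and 15.8 to 281.5, 206.4 and 291.1 normalized counts (log2 fold change 4.11, SE 0.24, limma adjusted p = 5.27e-05). Gata2, a factor of blood stem cells, basophils and mast cells, fell from 1284.0, 1319.9 and 1618.3 to 626.8, 594.6 and 632.4 (log2 fold change -1.18, SE 0.14, limma adjusted p = 0.000717). The largest rise was that of Tal1, which acts with GATA factors in erythroid cells, from 3.5, 3.0 and 3.4 to 668.7, 667.2 and 671.1 normalized counts (log2 fold change 7.29, SE 0.21, limma adjusted p = 1.25e-05). With a PBS mean of 3.30, Tal1 passed the count filter only through pIpC and could only rise. Cebpa, needed for basophil and other granulocyte precursors, rose from a mean of 1311 to 1874 (log2 fold change 0.53, SE 0.16, limma adjusted p = 0.0428), a call lost without PBS replicate 1, PBS replicate 2, pIpC replicate 1 or pIpC replicate 3. Spi1, which encodes PU.1 and had the highest counts, did not pass (means 7463 and 6762, log2 fold change -0.09, limma adjusted p = 0.776), and without PBS replicate 3 its log2 fold change was 0.17 with a limma adjusted p of 0.0347. The 6 erythroid markers all rose in the same libraries, and their part in the values of Gata1 and Tal1 was not tested. All of these markers but Klf1 had PBS means under 10 normalized counts, so they could only rise.

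The genes whose profile over the 6 libraries was most like the mean profile of the 8 countable genes were sought by the root mean square distance of centred log2(normalized count + 1) values. They were Angptl2 (distance 0.126), Fyn (0.137), Gata1 (0.146), Zfp36l1 (0.172) and Dok2 (0.174). Angptl2, a secreted angiopoietin-like protein, had normalized counts of 1.7, 1.0 and 2.3 in PBS and 41.9, 37.8 and 41.6 in pIpC. Zfp36l1, an mRNA-destabilizing protein, had 19.0, 19.2 and 23.8 in PBS and 314.4, 323.9 and 319.1 in pIpC, and Dok2, an adaptor of blood cells, had 42.4, 37.5 and 60.0 and then 638.8, 590.5 and 697.2. The likeness rests on 6 libraries in 2 groups.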

How the data were processed

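Poly(A)-selected RNA-seq libraries of 6 mouse samples were analysed, which are unstranded per the labels, while the study's methods describe stranded mouse libraries. The deposited values were a normalized signal: gene counts that the authors had divided by a factor per library. The submitters' processing notes name HISAT2 2.2.1, featureCounts and edgeR on GRCm38, whereas the study's methods describe another pipeline, so the counting tool is not settled. If strand was not used, counting cannot separate overlapping antisense genes. All values were whole multiples of 1 step per library (tolerance 0.05 of a read), and 100% of them gave whole reads, with totals of 19277439 to 23586722. Those reads gave RPKM with exon lengths from GENCODE M21. Genes that averaged at least 10 normalized counts were fitted as log2(value + 1) with limma 3.58.1 in R 4.3.3, PBS against pIpC without a block, with Benjamini-Hochberg adjustment over 15020 genes and a threshold of 0.1. A gene with a PBS mean under 10 passed this filter only through pIpC and could only rise, and the reverse held for pIpC means. On the recovered reads edgeR 4.0.16 called 6901 genes and DESeq2 1.42.0 called 7451. Intervals are 95% and cover counting error only, and the floor for a group at 0 is 3 reads over the group.

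Members and lists were chosen with earlier results of these data known. Named genes were Brd9, the 9 members, for each list the tested genes with the highest and lowest log2 fold change and the highest mean, Fcer1g, Kit, Gata1, Gata2, Cebpa, Cma1, Mcpt4, Tpsab1, Ctsg, protease genes within 500 kb of Mcpt8 or Prss34, and the 5 genes nearest in profile. Further genes were chosen after their values were seen, as said at most of them. Marker lists were summed per library. Motifs were searched on both strands. In the exocytosis list, 1 gene of 18 is not analysed here. Alternatives were other pseudocounts, filters, scalings, thresholds and tools, a replicate block, and leaving out each library.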

Additional observations from a re-analysis of the deposited data

How the results depend on the processing

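The log2 fold changes of Mcpt8 (2.94 to 3.36 on leaving out each library in turn), Ms4a2 (5.09 to 5.67) and Hdc (0.93 to 1.19) kept their direction under every alternative run, and that of Ms4a2 was 4.77 with a pseudocount of 10. That of Cpa3 ran from -0.32 to 0.37 and that of Il4 from -0.86 to 0.05 on leaving out libraries, and Il4 was at -1.40 after quantile normalization. Il4 was not fitted at a mean count of at least 50. The number of genes called ranged from 4650 to 9783 on leaving out libraries. Of the lists, that of mast cell genes had 4 called with no filter on low counts, against 2, and that of FcεRI signalling had 4 called at an adjusted p under 0.05, against 7, and 4 to 17 on leaving out libraries. The highest count came without PBS replicate 3, when 13 transcription factors (6 without PBS replicate 2 or pIpC replicate 1, against 9), 13 exocytosis genes and 10 histamine and lipid mediator genes were called. Exocytosis genes called numbered 8 without PBS replicate 2, pIpC replicate 2 or pIpC replicate 3, against 10. Mediator genes called numbered 5 when any library except PBS replicate 3 was left out, against 7. Quantile normalization moved the median log2 fold change of all genes from 0.01 to -0.12 and the share of calls that were higher from 55.1% to 44.3%. No list gene that was called changed sign under any alternative. Replicate numbers did not pair the samples: same-numbered libraries had correlations of their deviations of -0.12, 0.14 and 0.04, and not every library correlated best with its own number. With the replicate number as a block, 6095 genes were called, and 12 basophil, 3 mast cell, 6 FcεRI signalling, 8 exocytosis, 6 mediator and 8 transcription factor genes. Depth limits Il4, Cd200r3 and all genes at or near 0 reads.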
